A study of Rattus norvegicus with 24 samples.

Results

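Osteoclast fusion and resorption genes were followed in the bone around implants in the rat tibia, a bone of the hind leg, at days 7 and 28 after surgery. The genes were named as a list of 9, namely Acp5, Ctsk, Atp6v0d2, Dcstamp, Ocstamp, Calcr, Oscar, Nfatc1 and Clcn7. A gene was taken as measured where a probe set of the array carried its symbol and no other. This held for 5 of the 9, Ctsk, Atp6v0d2, Calcr, Oscar and Clcn7, each with 1 probe set, out of 18166 named genes and 36495 probe sets tested. Acp5, Dcstamp, Ocstamp and Nfatc1 were not analysed here.

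The material came from 12 male Sprague Dawley rats, whose age is not given in the sources used here. Each rat carried implants of poly(lactide-co-glycolide acid) (PLGA), a degradable polymer, in the tibia. The Ctrl implant held sodium carbonate and the Li+ implant held lithium carbonate, so that both groups received PLGA with a carbonate salt and no group had bone without an implant. Bone from 1 Ctrl site and 1 Li+ site of each rat was hybridised to separate Affymetrix Rat Gene 2.0 ST arrays, 24 in all, with 6 rats at day 7 and another 6 at day 28. The labels call the operation a fracture model. All values below are log2 signals, on which a difference of 1 is a doubling of the signal, and the signal of one probe set cannot be set against that of another.

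Osteoclasts are the multinucleated cells that resorb bone. They form when precursors of the monocyte and macrophage lineage, kept alive by macrophage colony-stimulating factor (Csf1) acting on its receptor Csf1r, are driven by the cytokine RANKL (Tnfsf11) through its receptor RANK (Tnfrsf11a) to differentiate and fuse, while osteoprotegerin (Tnfrsf11b) is a decoy that captures RANKL. The mature cell seals off an area of bone, acidifies it with a vacuolar proton pump (V-ATPase) coupled to chloride transport, and secretes proteases that digest the collagen laid bare. Of the measured genes, Oscar encodes an immunoglobulin-like receptor that binds collagen and gives a costimulatory signal for differentiation. Calcr encodes the calcitonin receptor, through which calcitonin stops resorption. Atp6v0d2 encodes a d subunit of the V-ATPase that is enriched in osteoclasts and, in mice, is needed for efficient fusion. Clcn7 encodes a chloride-proton exchanger of lysosomes and of the ruffled border, and Ctsk encodes cathepsin K, the main collagen-degrading protease of the osteoclast.

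As a description, the promoters of the measured genes found in the RefSeq table of build GRCr8 are shown, 4 of the 5 members. Each runs from 250 bases before to 50 bases after the annotated start, 5′ to 3′ on the strand of the gene. Capitals mark the letters of a motif found on either strand among TGGAAA (the core bound by NFAT factors), TGAGTCA (AP-1, whose reverse complement TGACTCA is the same site), CACGTG (an E-box) and GAGGAA (the core bound by PU.1), and the 4 motifs did not overlap in these promoters.
Oscar, chr1:74522633-74522932, plus strand: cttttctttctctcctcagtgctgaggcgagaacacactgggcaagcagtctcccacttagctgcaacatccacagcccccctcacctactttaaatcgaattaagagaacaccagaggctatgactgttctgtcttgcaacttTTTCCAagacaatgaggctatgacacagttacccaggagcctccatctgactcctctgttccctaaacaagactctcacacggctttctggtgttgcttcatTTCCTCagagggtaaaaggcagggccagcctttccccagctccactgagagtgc
Calcr, chr4:32691026-32691325, minus strand: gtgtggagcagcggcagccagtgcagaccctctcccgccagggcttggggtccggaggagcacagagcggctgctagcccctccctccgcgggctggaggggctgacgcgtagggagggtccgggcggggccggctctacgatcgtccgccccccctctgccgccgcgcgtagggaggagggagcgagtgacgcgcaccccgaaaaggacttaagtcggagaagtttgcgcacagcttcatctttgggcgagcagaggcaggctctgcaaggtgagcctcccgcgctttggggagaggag
Clcn7, chr10:14656011-14656310, plus strand: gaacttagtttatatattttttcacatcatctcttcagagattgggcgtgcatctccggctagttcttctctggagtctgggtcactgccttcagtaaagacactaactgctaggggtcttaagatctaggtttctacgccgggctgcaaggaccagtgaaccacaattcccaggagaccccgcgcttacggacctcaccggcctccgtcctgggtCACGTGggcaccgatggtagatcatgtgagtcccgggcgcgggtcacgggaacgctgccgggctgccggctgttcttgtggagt
Ctsk, chr2:185747298-185747597, plus strand: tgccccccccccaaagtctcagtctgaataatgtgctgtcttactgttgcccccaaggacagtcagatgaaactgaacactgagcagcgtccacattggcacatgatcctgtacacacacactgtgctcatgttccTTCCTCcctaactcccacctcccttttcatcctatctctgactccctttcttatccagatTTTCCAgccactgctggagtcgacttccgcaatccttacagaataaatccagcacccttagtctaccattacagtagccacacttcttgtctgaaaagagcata
The NFAT core was present, as its reverse complement, in Oscar with its first letter at -106 from the start and in Ctsk at -54. The PU.1 core was likewise present as its reverse complement in Oscar at -4 and in Ctsk at -114, and the E-box was present in Clcn7 at -34. None of the 4 motifs was found in the Calcr window, and AP-1 was found in none of the 4 windows. Among 33469 promoters of the table, 22.7% held the NFAT core, 27.6% the PU.1 core, 6.42% the E-box and 4.63% the AP-1 motif, so the 2 cores are common in windows of this length. A match is a run of letters and not a measured binding site.

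Before the comparisons, the arrays were checked against marker genes. No detection call was used here, and levels of different probe sets cannot be set side by side, so the presence of each cell type could be checked only roughly. Signals above the median of all probe sets were seen for 9 of 9 measured osteoblast markers, 5 of 6 osteocyte markers and 12 of 14 macrophage markers. The same held for 10 of 11 neutrophil, 6 of 6 erythroid, 6 of 6 B cell and 5 of 9 skeletal muscle markers. Of 18166 named genes, 11119 outside the 5 members also lay above it, so this check does not single out bone cells. On 3 arrays of day 28, from the Ctrl sites of rats 23 and 29 and the Li+ site of rat 27, the mean of 9 skeletal muscle markers stood 2.33 to 4.48 above its average over all arrays, against -0.80 to 0.39 on the other 21 arrays. The differences of the 5 genes between days, over the rat means, are therefore also given without these 3 arrays and without the 3 rats. The labels do not give hybridisation dates or batches, so none could be examined.

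The over-time comparison asked whether the genes changed between days 7 and 28. All 5 had lower signals at the later day in the Ctrl arrays, in the Li+ arrays and in the means of the 2 sites of each rat. The differences in the rat means ran from -0.77 for Atp6v0d2 to -0.32 for Ctsk, and their median was -0.49, against 0.02 over all probe sets. Clcn7 alone passed the adjusted threshold, and it did so narrowly. In whole tissue, fewer osteoclasts, less RNA per osteoclast and a changed share of other cells cannot be told apart.

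**Figure D1:**
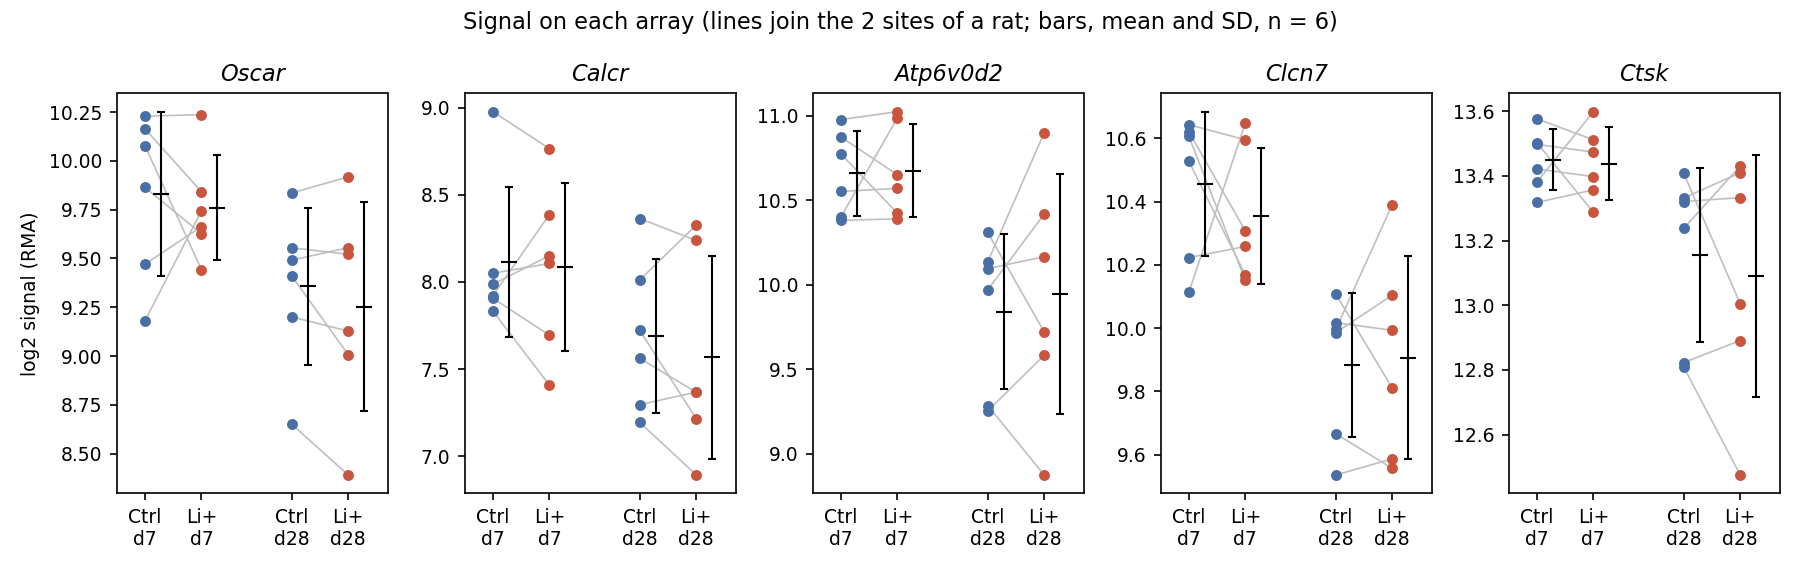
Log2 signal (vertical axis) of the 5 measured genes on each of 24 arrays, by implant and day. Points are arrays, grey lines join the Ctrl and Li+ sites of a rat, and black marks give the mean and SD of 6 arrays. The day 28 means lie below the day 7 means for every gene, whereas the lines within a day run both up and down.

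The receptors come first. Oscar had signals in the Ctrl arrays of day 7, in the order of rats 4, 5, 7, 10, 11 and 15, of 10.16, 9.86, 10.08, 9.47, 10.23 and 9.18, and in the Li+ arrays of 9.84, 9.63, 9.44, 9.66, 10.24 and 9.74. At day 28, in the order of rats 21, 23, 27, 28, 29 and 30, Oscar had 8.65, 9.41, 9.20, 9.84, 9.55 and 9.49 in Ctrl and 8.39, 9.01, 9.13, 9.92, 9.52 and 9.56 in Li+. Rat 21 was lowest at both of its sites, and the days overlapped in either implant. The mean of Oscar went from 9.83 ± 0.42 to 9.36 ± 0.40 in Ctrl and from 9.76 ± 0.27 to 9.25 ± 0.53 in Li+ (SD, n = 6 arrays each). Over the rat means the difference of Oscar was -0.49 (SE 0.197, 95% confidence interval -0.92 to -0.06), with an adjusted p of 0.221 by limma. It was -0.52 without the 3 muscle-high arrays and -0.49 without rats 23, 27 and 29.

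Calcr had the widest scatter between rats at day 7. Its Ctrl signals there were 8.05, 7.99, 7.91, 7.83, 8.98 and 7.92, and its Li+ signals 8.11, 8.15, 7.69, 7.41, 8.76 and 8.39, in the same order of rats. At day 28 Calcr had 7.19, 7.72, 7.56, 8.01, 8.36 and 7.30 in Ctrl and 6.89, 7.21, 7.37, 8.33, 8.24 and 7.37 in Li+. Rat 11 was the highest of day 7 at both sites, and rats 28 and 29 stayed within the day 7 range. The means of Calcr went from 8.11 ± 0.43 to 7.69 ± 0.44 in Ctrl and from 8.09 ± 0.48 to 7.57 ± 0.58 in Li+ (SD, n = 6 arrays each). The rat means differed by -0.47 (SE 0.237, interval -0.98 to 0.04, adjusted p 0.335 by limma), an interval that includes 0. Without the 3 muscle-high arrays the Calcr difference was -0.51, and without the 3 rats -0.58.

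Atp6v0d2 showed the largest difference of the 5 genes. In Ctrl it had 10.98, 10.55, 10.77, 10.38, 10.87 and 10.40 at day 7 against 9.28, 10.31, 9.25, 10.14, 10.09 and 9.97 at day 28, so that every Ctrl array of day 28 lay below every Ctrl array of day 7. In Li+ it had 11.02, 10.57, 10.42, 10.39, 10.65 and 10.99 at day 7 against 8.87, 9.72, 9.58, 10.90, 10.16 and 10.42 at day 28. There the Li+ sites of rats 28 and 30 reached into the day 7 range and the groups overlapped. The means of Atp6v0d2 went from 10.66 ± 0.25 to 9.84 ± 0.46 in Ctrl and from 10.67 ± 0.27 to 9.94 ± 0.71 in Li+ (SD, n = 6 arrays each). The difference of Atp6v0d2 over the rat means was -0.77 (SE 0.208, interval -1.22 to -0.32), a 1.71-fold lower signal, with an adjusted p of 0.0868 by limma. It passed the threshold in 1 of 12 fits that left out 1 rat, that without rat 28, at -0.90 with an adjusted p of 0.0342. The difference of Atp6v0d2 was -0.85 without the 3 muscle-high arrays and -0.74 without the 3 rats.

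Clcn7 had Ctrl signals of 10.64, 10.22, 10.53, 10.61, 10.62 and 10.11 at day 7 against 9.67, 10.11, 9.54, 10.00, 10.02 and 9.99 at day 28. The Ctrl groups of Clcn7 did not overlap, but the lowest of day 7 (rat 15, 10.113) and the highest of day 28 (rat 23, 10.108) nearly touched. In Li+ the signals were 10.60, 10.26, 10.17, 10.15, 10.31 and 10.65 at day 7 against 9.56, 9.81, 9.59, 10.39, 9.99 and 10.10 at day 28, and the Li+ site of rat 28 lay among those of day 7. The means of Clcn7 went from 10.46 ± 0.23 to 9.88 ± 0.23 in Ctrl and from 10.36 ± 0.22 to 9.91 ± 0.32 in Li+ (SD, n = 6 arrays each). Over the rat means, which did not overlap between days for Clcn7, it fell by 0.51 on the log2 scale (SE 0.107, interval -0.74 to -0.28), a 1.42-fold lower signal, with an adjusted p of 0.0463 by limma. This call held in 2 of 12 fits that left out 1 rat, those without rat 10 or rat 28, and was lost in the others, with adjusted p from 0.0172 to 0.0990 and differences from -0.57 to -0.44. It was also lost without rats 23, 27 and 29 together, at -0.46, and kept at -0.54 without the 3 muscle-high arrays alone.

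Ctsk had Ctrl signals of 13.58, 13.42, 13.50, 13.32, 13.50 and 13.38 at day 7 against 12.81, 13.41, 12.82, 13.24, 13.32 and 13.33 at day 28. Its Li+ signals were 13.51, 13.40, 13.29, 13.36, 13.47 and 13.60 at day 7 against 12.47, 13.00, 12.89, 13.43, 13.33 and 13.41 at day 28. Rats 21 and 27 were low at both sites, and the other rats of day 28 had at least 1 site within the range of day 7. The spread widened from an SD of 0.09 to 0.27 in Ctrl and from 0.11 to 0.38 in Li+, a description that was not tested, while the Ctsk means went from 13.45 to 13.16 and from 13.44 to 13.09 (n = 6 arrays each). The rat means of Ctsk differed by -0.32 (SE 0.116, interval -0.57 to -0.07), with an adjusted p of 0.175 by limma. They differed by -0.36 without the 3 muscle-high arrays and by -0.33 without the 3 rats.

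**Figure D2:**
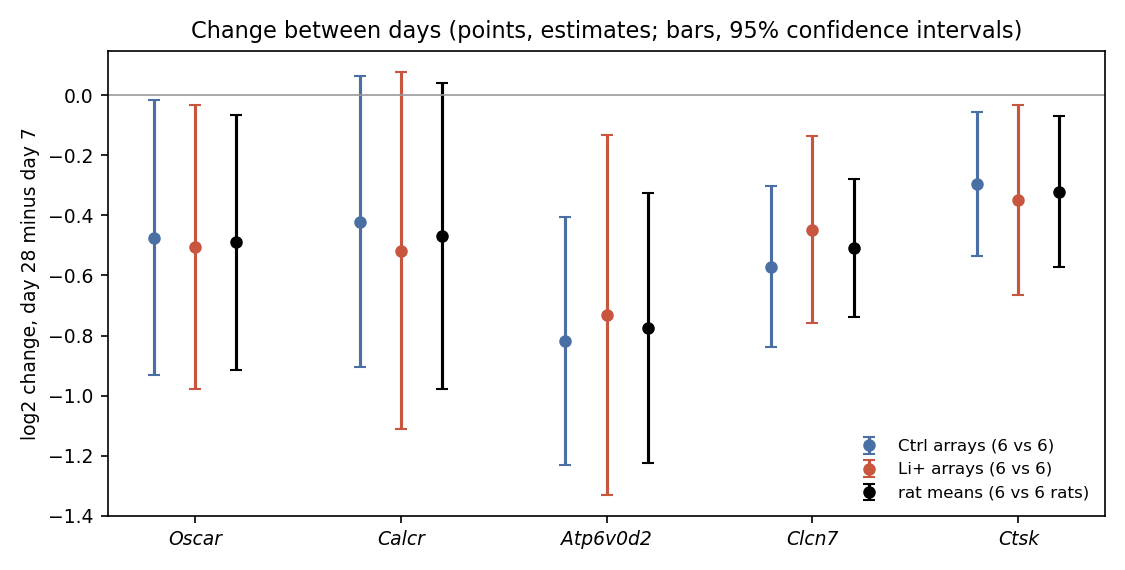
Difference in log2 signal between days 28 and 7 (vertical axis) for the 5 genes. Points are limma estimates from 6 against 6 Ctrl arrays, Li+ arrays or rat means, and bars are 95% confidence intervals. All estimates lie below 0, from -0.82 to -0.29, and only the 3 Calcr intervals include 0.

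Counted against the rest of the array, 1 of the 5 genes was lower at an adjusted p under 0.05 over the rat means, a call that 0.595% of all probe sets shared. Within Ctrl and within Li+, 0 of 5 passed the adjusted threshold, as 0.0822% and 0.162% of probe sets did in that direction. At an unadjusted p under 0.05, 4 of 5, all but Calcr, were lower in Ctrl, in Li+ and over the rat means, where 5.85%, 7.38% and 7.87% of probe sets were. Groups that did not overlap, with day 28 lower, were seen for 2 of 5 in Ctrl (Atp6v0d2 and Clcn7), 0 of 5 in Li+ and 1 of 5 over the rat means (Clcn7), and for 0.674%, 0.644% and 1.14% of probe sets. The comparison over rat means uses the same arrays as those within Ctrl and within Li+ and is not a further test of them. The members are named genes, of which larger shares, 8.79%, 10.4% and 11.8%, were lower at that threshold. The unadjusted counts depended on the rats included. Over the rat means, Atp6v0d2, Clcn7 and Ctsk were counted in all 12 fits that left out 1 rat, Oscar in 8 and Calcr in 3. The count over the rat means was 3 without rats 23, 27 and 29 together and 4 without the 3 muscle-high arrays. In Li+ the count was 2 without rat 4, 11, 15, 21, 23 or 27, 2 without the 3 muscle-high arrays and 0 without rats 23, 27 and 29 together, with a median difference of -0.47 in the last case. In Ctrl it was 3 to 5 with 1 rat left out, and Oscar was among those counted in 4 of 12 such fits. Without rats 23, 27 and 29 the Ctrl count was 4 with a median of -0.57, but of different genes, since Oscar was lost (unadjusted p 0.111 by limma) and Calcr was gained (unadjusted p 0.0416 by limma). Without the 3 muscle-high arrays Calcr was likewise gained in Ctrl (unadjusted p 0.0241 by limma) and Oscar lost (0.0574).

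The rats of day 28 differed widely, and their order varied from gene to gene. Rat 21 had the lowest rat mean of day 28 for 4 of the 5 genes and rat 27 for Clcn7, whereas rat 28 had the highest for Atp6v0d2, Oscar and Clcn7, rat 29 for Calcr and rat 30 for Ctsk. For Atp6v0d2 the rat means ran from 9.08 to 10.52 at day 28 and from 10.38 to 11.00 at day 7. For Oscar they ran from 8.52 to 9.88 at day 28 and from 9.46 to 10.23 at day 7. The SD of the rat means was larger at day 28 than at day 7 for all 5 genes, for example 0.537 against 0.208 for Atp6v0d2 and 0.303 against 0.0759 for Ctsk. For Calcr the values were close, 0.495 against 0.429. None of these differences in spread was tested. Rat 27 was not set apart for Calcr, at 7.46 against 7.47 in rat 23 and 7.33 in rat 30. For Oscar it had 9.16, close to 9.21 in rat 23. Markers of other bone cells were low in rats 21 and 27. The mean of the osteoblast markers, each less its average over the arrays, was -0.47 in Ctrl and -0.61 in Li+ in rat 21 and -0.74 and -0.61 in rat 27, against -0.07 to 0.19 in the other 4 rats of day 28. The mean of the osteocyte markers was -0.65 and -0.68 in rat 21 and -0.50 and -0.50 in rat 27, against -0.01 to 0.25. The part of these markers in the low signals of rats 21 and 27 was not tested.

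**Figure D3:**
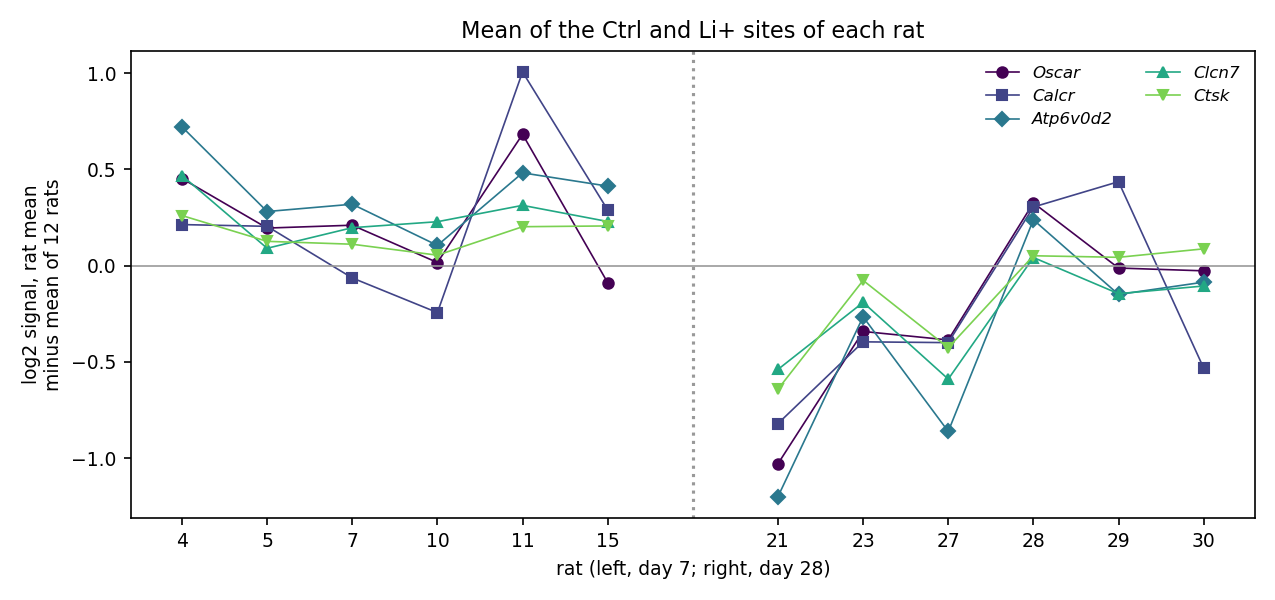
Mean log2 signal of the Ctrl and Li+ sites of each rat, less the mean of the 12 rats (vertical axis), for the 5 genes, with rats of day 7 on the left and of day 28 on the right. Lines join rats only to guide the eye. The genes dip together in rat 21. In rat 27 Atp6v0d2, Clcn7 and Ctsk are low, whereas Calcr and Oscar lie close to their values in rat 23. Rat 28 stands highest of day 28 for Atp6v0d2, Oscar and Clcn7. The osteoblast and osteocyte markers were also low in rats 21 and 27.

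Li+ was compared with Ctrl within rats, which asked whether the genes differed between the 2 kinds of site at either day. The methods place an implant of each group in each tibia, so a Ctrl site shared its bone with a Li+ implant. Whether lithium reached the Ctrl sites was not tested. None of the 5 genes differed between Li+ and Ctrl at day 7 at an adjusted p under 0.05, where 0.00274% of probe sets in either direction passed, and none at day 28, where 0% passed. At an unadjusted p under 0.05 the count was again 0 of 5 on each day, against 3.63% and 4.32% of probe sets. The mean differences ran from -0.10 for Clcn7 to 0.01 for Atp6v0d2 at day 7 and from -0.12 for Calcr to 0.10 for Atp6v0d2 at day 28. These intervals bound the difference and do not show that the implants acted alike.

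Oscar was higher at the Li+ site in 3 of 6 rats at day 7 and in 2 of 6 at day 28, with mean differences of -0.07 (interval -0.40 to 0.25) and -0.10 (-0.28 to 0.07). Calcr was higher at the Li+ site in 3 and 2 of 6 rats, with -0.03 (-0.29 to 0.23) and -0.12 (-0.36 to 0.12). Atp6v0d2 was higher there in 4 of 6 rats on both days, with 0.01 (-0.25 to 0.27) and 0.10 (-0.31 to 0.51). Its differences at day 28 went from -0.59 in rat 23 to 0.76 in rat 28, which made it the least well bounded of the 5. Clcn7 was higher at the Li+ site in 2 and 3 of 6 rats, with -0.10 (-0.39 to 0.19) and 0.02 (-0.18 to 0.22), and Ctsk in 2 and 4 of 6 rats, with -0.01 (-0.17 to 0.14) and -0.06 (-0.27 to 0.14). Every one of these 10 intervals included 0.

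The differences within rats had an SD over 6 rats, at days 7 and 28, of 0.421 and 0.191 for Oscar, 0.320 and 0.288 for Calcr, 0.322 and 0.520 for Atp6v0d2, 0.364 and 0.233 for Clcn7 and 0.141 and 0.244 for Ctsk.

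**Figure D4:**
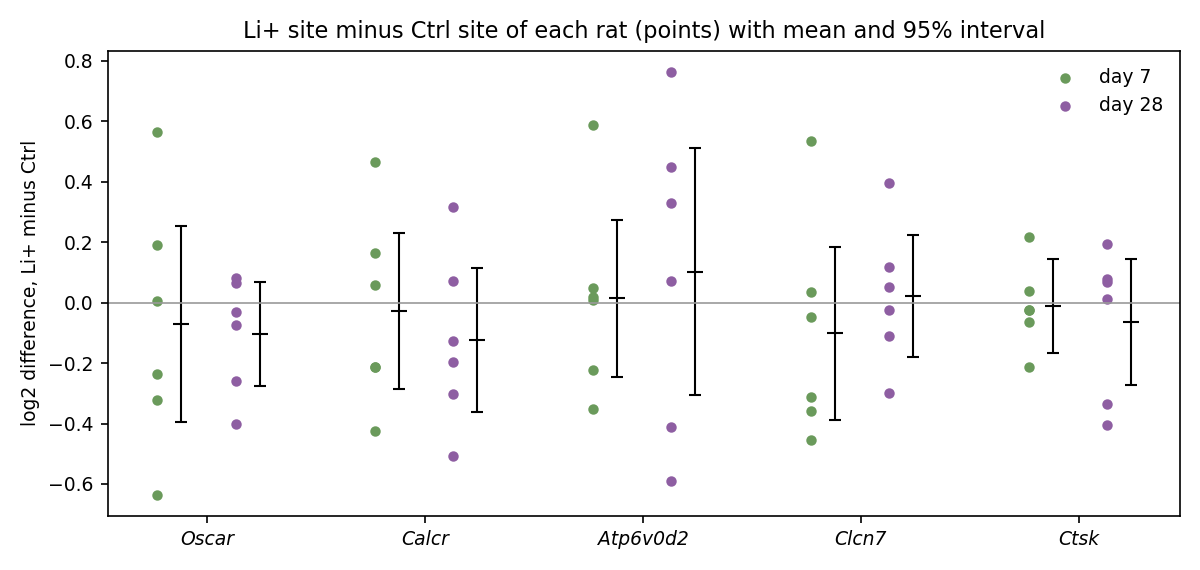
Log2 signal of the Li+ site minus that of the Ctrl site in each rat (vertical axis) for the 5 genes, with days 7 and 28 in separate colours. Points are rats, and black marks give the mean of 6 rats and its 95% confidence interval. Points fall on both sides of 0 for every gene and day, and all 10 intervals include 0.

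The time courses of the implants were compared through the change, from day 7 to day 28, in the difference within rats. It was 0.12 (interval -0.23 to 0.47) for Clcn7, 0.09 (-0.39 to 0.57) for Atp6v0d2, -0.03 (-0.40 to 0.34) for Oscar, -0.05 (-0.30 to 0.19) for Ctsk and -0.10 (-0.45 to 0.25) for Calcr. None of the 5 passed at an adjusted p, with a value of 0.9995 by limma for each, where 0% of probe sets did, and 0 of 5 passed at an unadjusted p, where 3.62% did. A lower Atp6v0d2 in Ctrl without overlap and in Li+ with overlap is therefore no shown difference between the implants.

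Other genes of the osteoclast were described by lists. As background to their counts over the rat means, 7.87% of all probe sets were lower and 9.24% higher at an unadjusted p. Of named genes, 11.8% were lower and 10.1% higher. At an adjusted p, 0.595% of probe sets were lower and 0.37% higher. Of 18 measured V-ATPase subunits outside the 5 genes, 6 fell over the rat means at an adjusted p and 15 were lower at an unadjusted p, with 0 higher and a median of -0.28. Atp6v0b, of the membrane sector, fell by 0.34 on the log2 scale (SE 0.0490, adjusted p 0.0167 by limma). Atp6v1h, Atp6v1f and Atp6v1b2, of the catalytic sector, fell by 0.41, 0.31 and 0.43. The count of 6 was 9 without the 3 muscle-high arrays and 0 without rats 23, 27 and 29, and it was 1 without rats 4, 5, 7, 11, 15, 21, 23, 27 or 29 singly, 2 without rat 30, 8 without rat 10 and 11 without rat 28. The median kept between -0.31 and -0.23 through all of these. Within Ctrl and within Li+, 13 of 18 were lower at an unadjusted p and 0 passed the adjusted threshold. These subunits serve acid compartments of many cell types.

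Of 19 other genes of osteoclast function, 3 fell over the rat means at an adjusted p. They were Acp2, a lysosomal acid phosphatase (-0.36), Snx10, a sorting nexin needed for resorption (-0.47), and Slc4a2, a chloride-bicarbonate exchanger that balances acid secretion (-0.43), with adjusted p of 0.0452, 0.0487 and 0.0496 by limma. At an unadjusted p 11 were lower and 1 higher, with a median of -0.25. The 1 higher gene was Car2, which stood at 0.27 over the rat means with an adjusted p of 0.193 by limma. The count of 3 was 5 without the 3 muscle-high arrays, 0 without rats 23, 27 and 29, 9 without rat 28, 3 without rat 10 and 0 without any other single rat. Slc9b2, a sodium-proton exchanger of osteoclasts, had a difference of -0.73 with an adjusted p of 0.0652. Siglec15, a sialic acid receptor of osteoclast precursors, stood at -0.64 over the rat means and at -0.70 within Ctrl, with adjusted p of 0.0915 and 0.158 by limma. Tcirg1, the V-ATPase subunit of the ruffled border, stood at -0.41 and -0.44, with adjusted p of 0.0731 and 0.150 by limma.

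Of 25 genes of differentiation signaling, none reached an adjusted p under 0.05 in limma over the rat means (0 of 25). At an unadjusted p, 11 had lower and 3 had higher signals, with a median of -0.11, where 11.8% and 10.1% of named genes did. Tnfrsf11a had -0.56, Tnfrsf11b -0.51, Csf1 -0.50, Tnfsf11 -0.26 and Csf1r -0.23, with adjusted p from 0.0744 for Csf1 to 0.265 for Tnfsf11. Ligand, receptor and decoy of the RANKL system thus all had estimates below 0. Prdm1, a transcriptional repressor that acts downstream of RANK, had -0.58, and Btk, a kinase of the costimulatory pathway that is also used by B cells, had 0.35. Without the 3 muscle-high arrays 2 genes were lower and 1 higher at an adjusted p, and the same counts were had without rat 28. Of 11 repressors of osteoclast differentiation, 0 passed in limma, and Id3 and Lgr4 were the 2 with lower signals at an unadjusted p, Id3 at -0.55 and Lgr4 at -0.48, with a median of 0.03. Without the 3 muscle-high arrays 3 repressors were lower and 1 higher at an unadjusted p, and without the 3 rats 2 and 0.

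Between Li+ and Ctrl, 0 genes of these 4 lists passed the adjusted threshold on either day by limma. At an unadjusted p under 0.05 there were 0 at day 7 and 1 at day 28, Trem2, a receptor of the myeloid lineage, at 0.37 (SE 0.132, adjusted p 0.999). Of all probe sets, 3.63% and 4.32% passed on these days.

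**Figure D5:**
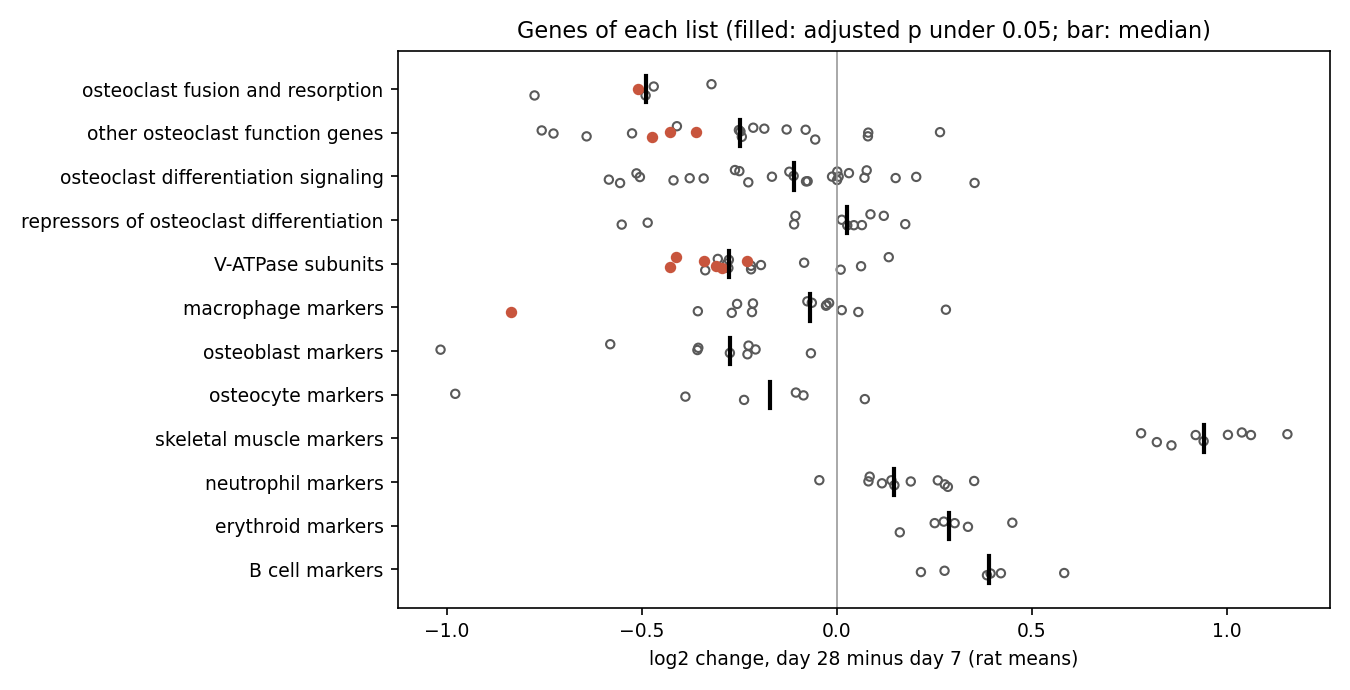
Difference in log2 signal between days 28 and 7 over rat means (horizontal axis) for each measured gene of 12 lists. Circles are genes, filled where the adjusted p was under 0.05, and bars are medians. The 5 osteoclast fusion and resorption genes have a median of -0.49, the V-ATPase subunits of -0.28 and the skeletal muscle markers of 0.94.

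Markers of other cells moved over the same interval. Their counts stand beside 11.8% of named genes lower and 10.1% higher at an unadjusted p over the rat means. All 9 measured osteoblast markers had estimates below 0 over the rat means, with a median of -0.27 and 6 of them lower at an unadjusted p. That count was 2 without rat 4, 11, 21 or 27 singly, 3 without rat 15 and 5 to 7 without any other single rat. It was 3 without rats 23, 27 and 29 together and 6 without the 3 muscle-high arrays. The mean of the osteoblast markers on an array, on the scale used above, ran from -0.30 to 0.59 in Ctrl and -0.05 to 0.42 in Li+ at day 7 and from -0.74 to 0.09 and -0.61 to 0.19 at day 28. Of the 6 osteocyte markers 5 had estimates below 0, with a median of -0.17 over the rat means and -0.40 within Li+, and 2 were lower at an unadjusted p. The lowest was Pdpn, at -0.98 (adjusted p 0.0589 by limma). The osteocyte mean ran from -0.20 to 0.44 in Ctrl and -0.27 to 0.54 in Li+ at day 7 and from -0.65 to 0.25 and -0.68 to 0.04 at day 28. The macrophage markers had a median of -0.07, with 5 of 14 lower and 1 higher at an unadjusted p. The lower count was 1 without rats 23, 27 and 29 together and 3 to 6 with 1 rat left out. Msr1, the scavenger receptor, fell by 0.84 on the log2 scale with an adjusted p of 0.0360 by limma. This call was lost without rats 23, 27 and 29 together, and without rat 4, 5, 7, 11, 15, 21, 23, 29 or 30 singly. The mean of the macrophage markers ran from -0.07 to 0.21 in Ctrl and 0.00 to 0.15 in Li+ at day 7 and from -0.25 to -0.02 and -0.16 to 0.05 at day 28. All 6 B cell markers were higher, with a median of 0.39, and the erythroid and neutrophil markers had medians of 0.29 and 0.15. Muscle markers, high on the 3 arrays named above, had a median of 0.94, which was -0.09 without these 3 arrays and -0.17 without the 3 rats. The medians of the osteoblast, osteocyte, macrophage and B cell markers were -0.30, -0.21, -0.05 and 0.43 without the 3 arrays and -0.27, -0.22, -0.09 and 0.40 without the 3 rats. Without these 3 arrays the differences of the 5 genes over the rat means ran from -0.85 to -0.36, against -0.77 to -0.32 with them. The part of the osteoblast, osteocyte, macrophage, B cell, erythroid and neutrophil markers in the result was not tested.

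The genes whose signals followed the 5 most closely were ranked by Pearson's r, over the 24 arrays, with the mean of the 5 signals, each less its own average. The arrays are pairs from 12 rats and share rat and day, so r is given as a description only. Among 11119 named genes above the median signal, the highest were Grk3 (0.97), a receptor kinase, Gpr137b (0.96), a lysosomal membrane protein, Tmem98 (0.96), Atp6ap1 (0.96), an accessory subunit of the V-ATPase, and Dnm1 (0.95), a dynamin, followed by Npc1, Myo1d, Atp6v1b2, Elk3 and Mfsd11, at 0.95 each. After the mean of each group was subtracted, which removes day and implant, 7 of these 10 were again among the highest 10, with Cd63, Csf1r and Slc35e4 as the others, and r from 0.92 to 0.95. All 10 genes of this second ranking had estimates below 0 between days over the rat means, from -0.57 to -0.23. They were picked by likeness to the 5 on these same arrays. Of them 1, Atp6v1b2, passed the adjusted threshold, as 0.595% of all probe sets did in that direction. Atp6v1b2 is also among the 6 V-ATPase subunits counted above, a count that depended on the rats included. Among the 5 genes themselves, the 10 pairs had r from 0.68 to 0.96 over the arrays and from 0.57 to 0.96 after group means were subtracted, with Ctsk and Atp6v0d2 the closest pair and Calcr and Clcn7 the least close on both scales.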

How the data were processed

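The deposited values were log2 signals of probe sets. According to the labels and methods, the authors made them with the RMA algorithm (background correction, quantile normalization and summarization) of the Affymetrix Expression Console 1.1.2. It was used as deposited. Array medians ran from 7.23 to 7.34, and the number of arrays limits the precision. The labels and the methods name different RNeasy kits and RNA amounts. After 190 control probe sets were left out, 36495 entered the tests, with no minimum signal. Symbols came from the platform table, in which 18511 probe sets had a single symbol, and a gene stood for its probe set of highest mean.

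Models were fitted with lmFit and eBayes of limma 3.58.1 under R 4.3.3, two-sided, with Benjamini-Hochberg adjustment over all probe sets and a threshold of 0.05. Li+ and Ctrl were compared with the rat as a fixed block, the days without a block, both sites of a rat averaged for the rat means, and the time courses on differences within rats. The labels give the same rat number to a Ctrl and a Li+ array of a day, and the methods state that each rat carried both implants. The residuals of these pairs correlated at 0.0675 to 0.569, with a median of 0.279 over 12 rats. Between days, p-values measure the spread between rats. For Li+ against Ctrl and for the time courses, they measure the spread of the differences within rats. The procedure was also run on simulated data, drawn independently for each probe set and without muscle-high arrays. No result above rests on that run. Figures were drawn with python 3.11.15 and matplotlib 3.10.9.

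The 9 genes and all gene lists were chosen with earlier results of these data known. All measured genes of the list are named, together with up to 4 genes of each other list by smallest unadjusted p in a comparison, the RANKL and Csf1 ligands and receptors, and the 10 genes closest by r. Alternatives were the paired or unpaired t-tests of the methods, no block, a random block over all arrays, array medians subtracted, a filter on signal, averaged probe sets, a variance trend, each rat left out, and rats 23, 27 and 29 left out. Leaving out the 3 muscle-high arrays alone was chosen after seeing the data.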

Additional observations from a re-analysis of the deposited data

Results flagged for a closer look

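Calcr at the Ctrl site of rat 11 at day 7 had a log2 signal of 8.98, and the next highest Ctrl site of that day had 8.05, so the gap made up 0.811 of the range of the 6 arrays, above Dixon's 95% critical value for that number. The Li+ site of the same rat was also the highest of its group, at 8.76. Among 20 groups of 6 arrays examined, 5 genes in 4 groups, this was the only value so far from the rest, and chance gives about 1 in 20.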

How the results depend on the processing

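In the Ctrl arrays over time, every difference of the 5 genes stayed below 0 and without an adjusted call under each alternative, and the count lower at an unadjusted p ran from 3 to 5. Over the rat means, Clcn7 was the 1 gene with an adjusted call. The count of called genes was 0 under the methods' t-test and without rats 23, 27 and 29, 2 in the random block fit over all arrays and 2 with probe sets at or above the median signal, where Atp6v0d2 was also called, and it ran from 0 to 2 when 1 rat was left out. In Li+ over time, the count lower at an unadjusted p was 2 under the methods' t-test, 2 without the 3 muscle-high arrays alone, 0 without rats 23, 27 and 29 and 2 to 5 when 1 rat was left out. The adjusted count there ran from 0 to 1, the 1 being Clcn7 without rat 28. Between Li+ and Ctrl the count lower at an unadjusted p ran from 0 to 1 on either day, with Clcn7 at day 7 without rat 15 and Calcr at day 28 without rat 28. Uncalled differences changed sign in several settings. Without rats 23, 27 and 29, Calcr became 0.028 for Li+ against Ctrl at day 28, and Calcr 0.055 and Oscar 0.034 for the change of this difference over time. With 1 rat left out, Li+ against Ctrl at day 7 ran from -0.058 to 0.029 for Ctsk, -0.10 to 0.088 for Atp6v0d2, -0.13 to 0.052 for Calcr and -0.20 to 0.041 for Oscar. At day 28 it ran from -0.12 to 0.0034 for Ctsk, -0.030 to 0.24 for Atp6v0d2 and -0.052 to 0.086 for Clcn7. The change of the difference ran from -0.10 to 0.015 for Ctsk, -0.044 to 0.23 for Atp6v0d2, -0.18 to 0.0017 for Calcr and -0.14 to 0.095 for Oscar. Without the block for the rat, Calcr differed between Li+ and Ctrl by the same -0.12 at day 28, and this unpaired fit changed no call of the 5 genes. The cause of these changes was not tested.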
